A study of Rattus norvegicus with 5 samples.

Results

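The transcripts described here are those of 9 genes known from T and natural killer (NK) cells. They are the surface molecules Cd2 and Cd7, the T cell receptor subunits Cd3d and Cd3g, the kinases Zap70 and Txk, the interleukin 2 receptor chain Il2rb, and the cytotoxic granule genes Gzmb and Nkg7. They were found through the RefSeq accession of each array probe, which gave 10 probes for 9 of the 15442 genes named on the array, and the brightest probe stood for its gene. The rule for choosing them used no measured value other than brightness, but the genes were proposed with earlier results of these data known.

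RNA was measured on 5 single-colour Cy3 Agilent rat expression arrays, 1 per tumour. All tumours grew from C6-L cells, a rat glioma line, in hosts labelled BALB/c nu/nu nude mice with an age of 6 weeks. A first group held 3 metastatic nodules of the lung, and a second the irradiated primary, 1 tumour; γ-irradiation preceded both by 6 weeks. The remaining tumour was a primary without irradiation, 6 weeks after cells were grafted. The comparisons ask how metastases that appear after irradiation differ from the primary tumour with and without it. Homozygous nude mice lack a working Foxn1 gene and a normal thymus, so they hold few mature T cells but keep NK cells, B cells and myeloid cells. The probes were designed on rat transcripts, whereas blood and stromal cells of the tumour belong to the mouse host, and how far mouse RNA binds each probe was not tested. In bulk RNA, fewer cells of a type and less RNA per cell cannot be told apart.

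The T cell receptor signals through the CD3 chains and the CD247 chain, whose phosphorylated motifs recruit the kinase ZAP70. TEC-family kinases, TXK among them, act just downstream. CD2 is an adhesion receptor of T and NK cells that binds CD48 in rodents, and CD7 is a surface glycoprotein of early T and NK cells. The interleukin 2 receptor beta chain carries interleukin 2 and interleukin 15 signals, on which NK cells depend. Granzyme B is a serine protease that killer cells deliver to targets through pores made by perforin, and NKG7 is a membrane protein of the granules.

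The stretches just upstream of 4 of these genes are shown because the genes are the ones on which the results turn: Cd2, Gzmb and Cd3g, which were well above background on the irradiated primary and on no other array, and Cd3d, the neighbour of Cd3g, which was well above background on every array. Each is the 200 bases before the RefSeq transcription start in the rat build GRCr8, written 5′ to 3′ on the strand of the gene. Capitals mark the RUNX core TGTGGT (or its reverse complement ACCACA), the recognition core of the RUNX family of lymphoid transcription factors.
Cd2, chr2:191412660-191412859, minus strand: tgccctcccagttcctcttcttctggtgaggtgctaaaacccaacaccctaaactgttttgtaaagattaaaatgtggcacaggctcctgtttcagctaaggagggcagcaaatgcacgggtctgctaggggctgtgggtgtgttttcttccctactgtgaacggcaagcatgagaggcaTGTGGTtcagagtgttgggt
Gzmb, chr15:34462470-34462669, minus strand: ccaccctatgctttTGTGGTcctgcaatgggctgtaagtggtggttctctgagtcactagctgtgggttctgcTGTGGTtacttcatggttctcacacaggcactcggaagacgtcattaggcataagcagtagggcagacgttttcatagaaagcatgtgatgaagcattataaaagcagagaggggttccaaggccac
Cd3g, chr8:54183919-54184118, minus strand: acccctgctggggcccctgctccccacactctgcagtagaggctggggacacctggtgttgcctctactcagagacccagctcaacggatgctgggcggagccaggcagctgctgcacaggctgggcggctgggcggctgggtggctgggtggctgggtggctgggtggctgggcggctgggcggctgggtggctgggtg
Cd3d, chr8:54185319-54185518, plus strand: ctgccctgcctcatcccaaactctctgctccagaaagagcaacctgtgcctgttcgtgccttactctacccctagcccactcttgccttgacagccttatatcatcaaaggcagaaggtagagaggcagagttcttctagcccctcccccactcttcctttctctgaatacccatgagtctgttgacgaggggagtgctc

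Cd2 holds 1 RUNX core, 20 bases before the start, and Gzmb holds 2, at 186 and 127 bases before it. Neither Cd3g nor Cd3d holds one in this window. Of the 7 members with a promoter entry, 3 hold the core on either strand (Nkg7 is the other), against 11.5% of all 33469 rat promoters of the same length. The ETS-type letters AGGAAG occur in 4 of the 7 (Txk, Cd3d, Nkg7 and Zap70), against 24.6% of all promoters, and the spaced interferon-response letters GAAANNGAA in 0 of the 7, against 6.48%. Both strands were searched, and none of the 3 motifs contains another. A match is a description of the letters and not of binding. Cd7 and Il2rb were not matched. Cd3g and Cd3d are adjacent protein-coding genes that point away from each other, and Cd3e is the next protein-coding gene beyond Cd3d.

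Levels are given as log2 of the spot signal relative to the 75th percentile of all probe signals of the same array, so that a more negative level is dimmer. Levels of different probes are not set against each other. A probe counts as well above background on an array when a share over 0.5 of its spots carries that flag of the scanner software. Arrays carried the flag on 69.8 to 73.5% of gene spots, no spot was saturated (0), and the lowest level well above background lay between -6.77 and -6.03. A probe called below background, or not detected, on an array only failed this rule. Its spots may still carry the separate flag for a positive and significant signal, as the 2 Txk spots did on the non-irradiated primary. Of 18913 features tested by limma (a linear model with 3 group means and Benjamini-Hochberg adjustment over all of them), 532 were lower in the nodules than in the irradiated primary (2.81%) and 172 were higher (0.909%). For the non-irradiated primary 1673 were lower (8.85%) and 1839 higher (9.72%). Each primary is 1 array, so these tests rest on the spread between the 3 nodules. Whether the nodules belong to separate animals is not labelled, and the p-values then speak of the spread between these samples, which may be technical. The nodules lay in 1 row of the slide and the primaries in the other, so row and group cannot be told apart.

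Across the 9 genes, 3 were well above background on the irradiated primary and on none of the other 4 arrays (Cd2, Gzmb and Cd3g), against 175 of the 20129 features seen on at least 1 array (0.869%). Over all features, 371 were seen only on nodule 1, 220 only on nodule 2, 147 only on nodule 3 and 171 only on the non-irradiated primary. A group of 5 of the 9 genes (Cd7, Cd3d, Zap70, Il2rb and Nkg7) was well above background on all 5 arrays. So were 16797 features in all, 83.4% of those seen on at least 1 array. Txk was seen on every array but that of the non-irradiated primary. Limma called 2 of the 9 lower in the nodules than in the irradiated primary (Cd2 and Cd7, background 2.81%) and 0 higher (background 0.909%). In the other comparison it called 1 lower (Cd7, background 8.85%) and 0 higher (background 9.72%). Cd2, like Gzmb and Cd3g, entered the test only through the irradiated primary, the array on which it was brightest. A call of Cd2 as lower in the nodules is therefore no separate support for its detection pattern. At an unadjusted p under 0.05, limma put 4 of the 9 below the irradiated primary (Cd2, Cd7, Txk and Gzmb). It put 2 below the non-irradiated one (Cd7 and Il2rb), with 0 above either. Of all 18913 features, 4153 passed that threshold in either direction against the irradiated primary and 6974 against the non-irradiated one. The unadjusted counts given below for gene lists have the same background.

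Between the primaries, which have no replicates and were not tested, Cd2, Txk, Gzmb and Cd7 were at least 2-fold higher in the irradiated one, 4 of 9 against 9.3% of 18442 features. With normexp background correction 1 of the 9 was (Txk, 2.34 on the log2 scale), while Cd2 was at 0.70, Gzmb at 0.89 and Cd7 at 0.94. No member was at least 2-fold lower, against 7.13% of features. Such gaps also occur between nodules: 959 features were at least 2-fold apart between nodules 1 and 2, 1297 between 1 and 3 and 416 between 2 and 3, against 3030 between the primaries.

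**Figure D1:**
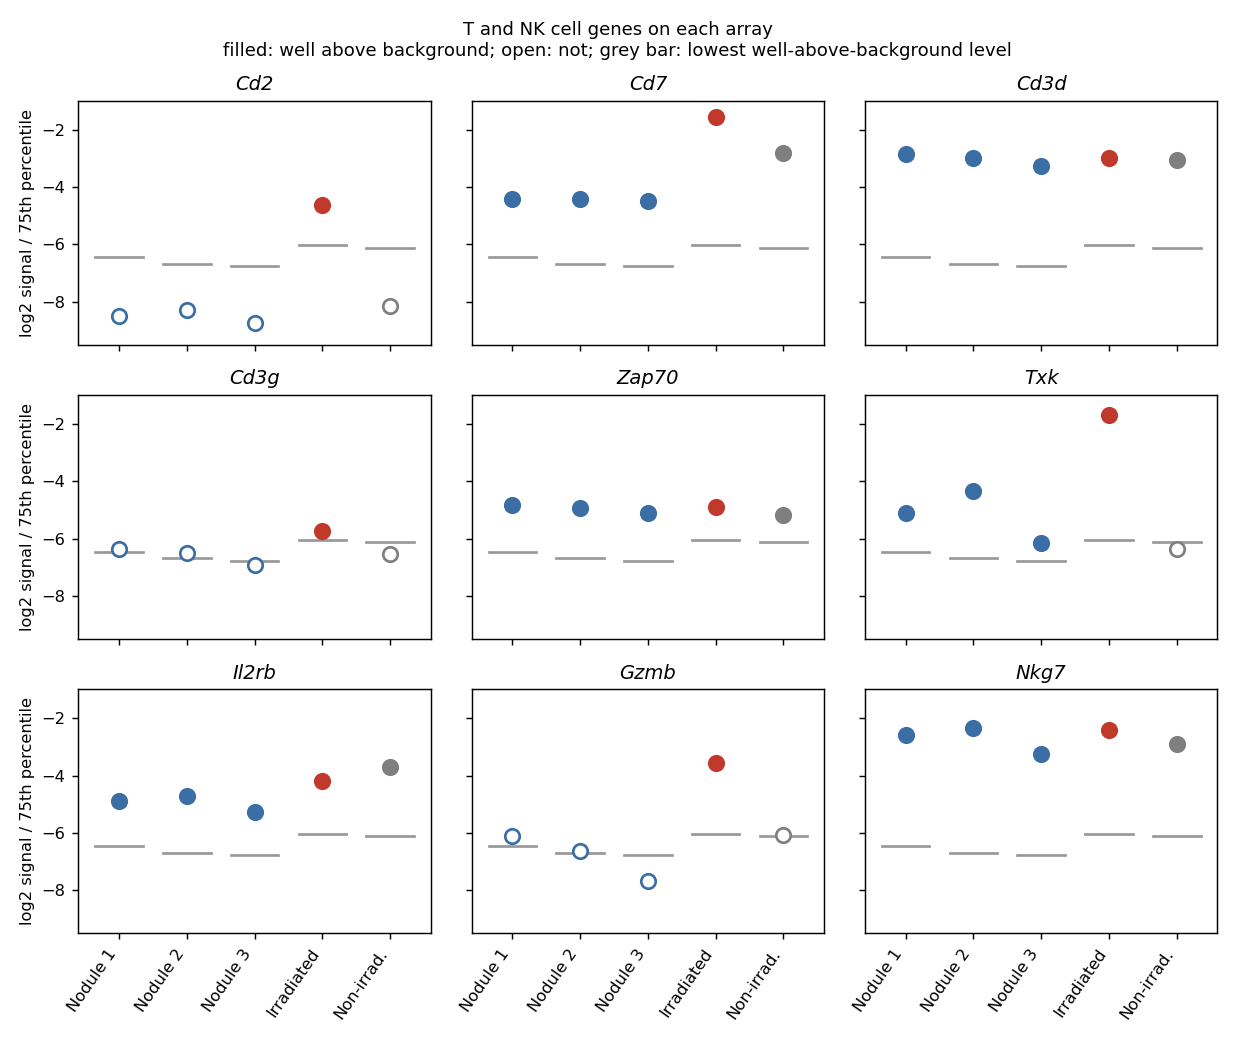
Level of each of the 9 genes on each array (log2 signal relative to the 75th percentile of the array), nodules in blue, irradiated primary in red and non-irradiated primary in grey; filled points are well above background, open points are not, and the grey bar is the lowest level well above background on that array. Cd2, Gzmb and Cd3g have a filled point on the irradiated primary and on no other array, whereas Cd3d, Zap70 and Nkg7 lie within 0.5 of the nodule mean on both primaries.

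The surface receptors Cd2 and Cd7 were both highest in the irradiated primary. Cd2 stood at -8.49, -8.30 and -8.75 on nodules 1, 2 and 3, at -4.64 on the irradiated primary and at -8.14 on the non-irradiated primary. The irradiated primary thus stood alone above background, and the other 4 arrays lay within a narrow band below it. On that array the 2 Cd2 spots read 55.3 and 60.4 in unscaled signal, whereas the spots elsewhere read 3.32 to 5.07. Because the nodules gave only a bound, Cd2 was at least 4.005-fold higher in the irradiated primary than in the nodules and at least 2.80-fold higher than in the non-irradiated primary. On the log2 scale the measured mean of the nodules minus the irradiated primary came to -3.88 (SE 0.42), with a limma adjusted p of 0.0256. The size of that fitted difference rests on signals below background, and it was -0.73 (adjusted p = 0.101) when the background was corrected by normexp. The call was also lost without nodule 2 (adjusted p = 0.124) or nodule 3 (adjusted p = 0.0701). Nodules and non-irradiated primary differed by -0.37 (adjusted p = 0.575), with both below background.

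Cd7 read -4.42, -4.43 and -4.51 on the nodules, -1.58 on the irradiated and -2.83 on the non-irradiated primary, all well above background. The nodules were thus tightly grouped (SD 0.04, n = 3), and both primaries lay above them without overlap. The nodules were lower than the irradiated primary by -2.88 (SE 0.21, limma adjusted p = 0.0111), 7.36-fold on the linear scale, and lower than the non-irradiated primary by -1.62 (SE 0.21, adjusted p = 0.0161), 3.08-fold. Cd7 was therefore the one member called against both primaries, which share the same nodules as comparison. The primaries themselves were 2.39-fold apart, with the irradiated one higher and no replicate of either. With normexp both differences were called but smaller, -1.96 and -1.02. Both calls were lost without nodule 2 (adjusted p = 0.0831 and 0.0829), and the call against the non-irradiated primary was lost without nodule 3 (adjusted p = 0.0591).

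The binding partners of both receptors gave no call. All 8 measured genes of the CD2 and CD7 partner list were seen on at least 1 array, and the only ones called were Cd2 and Cd7 themselves. Cd48, the rodent ligand of CD2, read -2.81, -3.16 and -2.93 on the nodules, -3.37 on the irradiated and -3.80 on the non-irradiated primary, and was called against neither (adjusted p = 0.397 and 0.0737). Sectm1a, whose product belongs to the CD7 ligand family, read -5.12, -5.12 and -5.26 on the nodules, -4.29 on the irradiated and -5.62 on the non-irradiated primary (adjusted p = 0.159 and 0.287). The median difference over the 8 genes, nodules minus irradiated primary, was -0.34, against 0.034 over all features tested. That median counts Cd2 and Cd7 themselves. The partners alone differed by -0.88 (Sectm1a), -0.47 (Sectm1b), -0.21 (Cd2ap), -0.03 (Pstpip1), 0.40 (Cd48) and 0.40 (Cd2bp2).

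Both receptor subunits on the list were without a call. Cd3d, the delta chain, read -2.85, -3.00 and -3.26 on the nodules, -3.00 on the irradiated and -3.05 on the non-irradiated primary. Both primaries lay inside the range of the nodules, and all 10 Cd3d spots were well above background on every array. The differences from the nodules were -0.04 (SE 0.24, limma adjusted p = 0.945) and 0.01 (SE 0.24, adjusted p = 0.979), and the sign of the first turned with the scaling, that of the second with normexp or a nodule left out. Cd3g, the gamma chain, read -6.36, -6.49 and -6.91 on the nodules, -5.73 on the irradiated and -6.52 on the non-irradiated primary. The irradiated primary was the highest array. On it, 6 of the 10 Cd3g spots were well above background, against 4 of 9 and 4 of 10 on nodules 1 and 2, 2 of 10 on nodule 3 and 0 of 10 on the non-irradiated primary. Spots on both sides of the flag were thus present on 4 of the 5 arrays. Cd3g was at least 1.75-fold higher than in the nodules and at least 1.31-fold higher than in the non-irradiated primary, and limma did not call it (-0.85, SE 0.39, adjusted p = 0.287).

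The other chains of the complex were not detected. Cd3e, the epsilon chain without which no CD3 complex forms, lay between -8.61 and -7.76 and was well above background on no array. Cd247, the zeta chain, lay between -8.71 and -7.63 and was likewise below background throughout. Constant-region genes of the receptor itself were not matched to any probe and were not analysed here. Of the 4 measured genes of the complex, 2 were seen on any array. The summed signal of the 4 (in multiples of the 75th percentile) ranged from 0.119 to 0.157 in the nodules, against 0.153 and 0.141 in the irradiated and non-irradiated primaries. Most of each sum came from Cd3d.

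**Figure D2:**
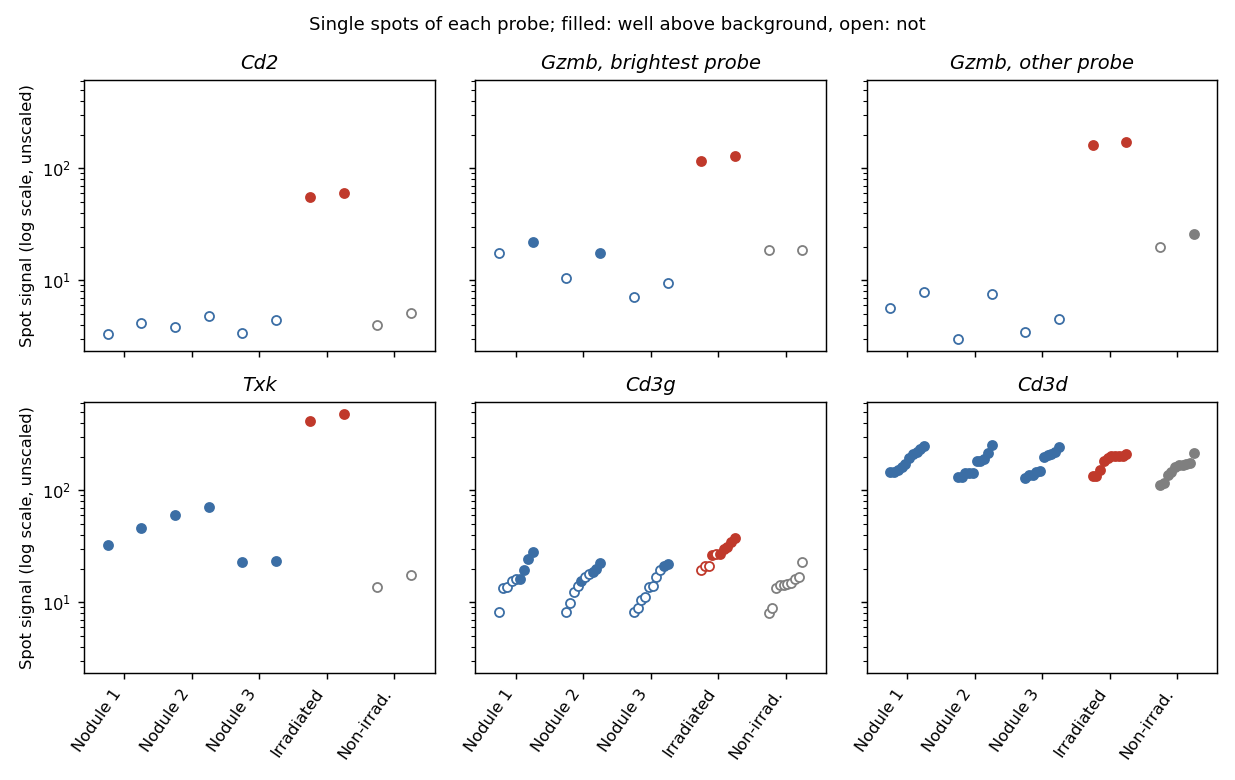
Unscaled signal of every single spot (log axis; outlier spots left out; spots ordered by signal within an array) for Cd2, both Gzmb probes, Txk, Cd3g and Cd3d; filled points are spots well above background. Cd2 spots read 55.3 and 60.4 on the irradiated primary and 3.32 to 5.07 elsewhere, while the 10 spots of Cd3d are above background on every array and those of Cd3g straddle the limit.

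Among the kinases, the spread over arrays was wide for Txk and narrow for Zap70. Txk read -5.11, -4.36 and -6.16 on the nodules, -1.68 on the irradiated primary and -6.36, below background, on the non-irradiated primary. The irradiated primary lay above all nodules, the nodules spread widely among themselves (SD 0.91, n = 3), and the non-irradiated primary lay below them all. The irradiated primary was 11.5-fold above the nodule mean and at least 21.7-fold above the non-irradiated primary. With that spread the difference from the nodules did not pass the threshold (-3.53, SE 0.72, limma adjusted p = 0.0791). It passed without nodule 1 (adjusted p = 0.0176) and after normexp (adjusted p = 0.0206), which reduced it to -2.17 and the difference between the primaries from 4.68 to 2.34. The difference between nodules and non-irradiated primary was 1.15 (adjusted p = 0.313), and the nodules were at least 1.88-fold higher. Zap70 read -4.84, -4.92 and -5.12 on the nodules, -4.91 on the irradiated and -5.17 on the non-irradiated primary. Its differences from the nodules were -0.05 (SE 0.28, adjusted p = 0.935) and 0.21 (SE 0.28, adjusted p = 0.636), and the sign of each depended on the processing.

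Of the 14 genes of proximal T and NK cell signalling reported here, 11 were seen on at least 1 array and 10 on all 5. Limma called 0 of these 11 against the irradiated primary (2 at an unadjusted p under 0.05, Txk and Lcp2). Lck, the Src-family kinase that starts T cell receptor signalling, was well above background on no array (-7.33 to -6.40). In the comparison with the non-irradiated primary the adaptors Lat (-1.36, adjusted p = 0.0309) and Lcp2 (-2.51, adjusted p = 0.0115) were lower in the nodules, whereas Vav1 (1.37, adjusted p = 0.0262) and Fyb1 (1.61, adjusted p = 0.0346) were higher. Those 4 are also used by myeloid, mast or platelet lineages. The median difference of the 11 genes from the irradiated primary was -0.05, against 0.034 over all features.

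Of the granule genes, Gzmb was brightest on the irradiated primary and Nkg7 was well above background on all arrays. Gzmb read -6.09, -6.62 and -7.67 on the nodules, -3.55 on the irradiated and -6.09 on the non-irradiated primary. The irradiated primary was the one array on which both of its spots passed, although 1 of 2 spots also passed on each of nodules 1 and 2. Gzmb was at least 7.68-fold higher there than in the nodules. Over the non-irradiated primary the bound of 5.79-fold was the measured fold itself. The fitted difference from the nodules missed the threshold (-3.24, SE 0.67, limma adjusted p = 0.0808). The difference passed without nodule 1 (adjusted p = 0.00568) and after normexp (adjusted p = 0.0345), although normexp reduced its size to -1.09. The other Gzmb probe read -7.64, -8.14 and -8.72 on the nodules, -3.11 on the irradiated and -5.81 on the non-irradiated primary. With each probe tested as a feature of its own, limma called it lower in the nodules than in the irradiated primary (adjusted p = 0.0227). This probe entered that test only through the irradiated primary. It was also called lower in the nodules than in the non-irradiated primary (-2.35), where 1 of its 2 spots was well above background. No spot of it was well above background on a nodule. Both probes therefore placed the irradiated primary highest, at least 11.5-fold over the nodules by the second. Granzymes form a family of related proteases, and whether a probe reads a related rat or mouse granzyme was not tested.

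Nkg7 read -2.59, -2.34 and -3.25 on the nodules, -2.42 on the irradiated and -2.91 on the non-irradiated primary, well above background throughout. Both primaries lay inside the range of the nodules, with differences of -0.30 (SE 0.40, limma adjusted p = 0.712) and 0.19 (SE 0.40, adjusted p = 0.768). Of the 12 measured cytotoxic genes, 7 were seen on at least 1 array and 5 on all, and limma called 0 of the 7 tested against the irradiated primary (3 at an unadjusted p under 0.05). Prf1, which encodes perforin, was well above background on no array (-8.23 to -7.33), nor was Ifng, the gene of interferon gamma (-7.58 on the irradiated primary). Gzma, a tryptase granzyme, was seen on all arrays and was dimmer in both primaries (-3.89 irradiated, -4.73 non-irradiated) than on each nodule (-3.81, -2.41 and -2.87), without a call (adjusted p = 0.450 and 0.105). Gzmc, another granzyme of killer cells, was by its brightest probe highest in the irradiated primary: -4.20, -5.24 and -6.14 on the nodules, -2.66 on the irradiated and -3.61 on the non-irradiated primary (adjusted p = 0.157 and 0.208). A second Gzmc probe gave another order, with the non-irradiated primary at -5.30, nodule 1 at -5.51 and the irradiated primary at -5.80, and the remaining one was below background throughout. Gzmk read -5.45, -5.06 and -4.80 on the nodules and -4.25 on the irradiated primary (adjusted p = 0.263), and was below background on the non-irradiated primary. The 1 call in this list was Srgn, the granule proteoglycan serglycin of many blood cells, lower in the nodules than in the non-irradiated primary (-1.50, adjusted p = 0.0228). The list's median difference from the irradiated primary was -0.85, against 0.034 over all features, and from the non-irradiated primary -0.04, against 0.038. Both medians count the members Gzmb and Nkg7.

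Il2rb differed from the other members in that the non-irradiated primary was its brightest array. It read -4.90, -4.71 and -5.26 on the nodules, -4.19 on the irradiated and -3.70 on the non-irradiated primary, so that both primaries lay above all nodules. The difference from the irradiated primary was -0.77 (SE 0.32, limma adjusted p = 0.256) and from the non-irradiated primary -1.26 (SE 0.32, adjusted p = 0.0574). The second passed the threshold after quantile normalization (adjusted p = 0.0407), in the deposited matrix (adjusted p = 0.0295) and without nodule 1 (adjusted p = 0.0265). Of 16 measured genes of the interleukin 2 and 15 receptor family, 12 were seen on at least 1 array, and limma called 0 of the 10 tested in either comparison (2 and 3 at an unadjusted p under 0.05). Il2rg, the common gamma chain, was seen on every array (0.92 to 1.52), and Il2ra, the alpha chain of the high-affinity receptor, on nodule 1 alone. Jak3, the kinase bound to the gamma chain, and Il2 itself were below background on all arrays. Il21r shared with Txk the order of the groups but not that of the nodules. It read -5.59, -5.59 and -5.16 on the nodules, -3.86 on the irradiated primary and -6.77, below background, on the non-irradiated primary (adjusted p = 0.0815 and 0.0558). Over the tested genes of the list the median difference from the irradiated primary was -0.01.

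**Figure D3:**
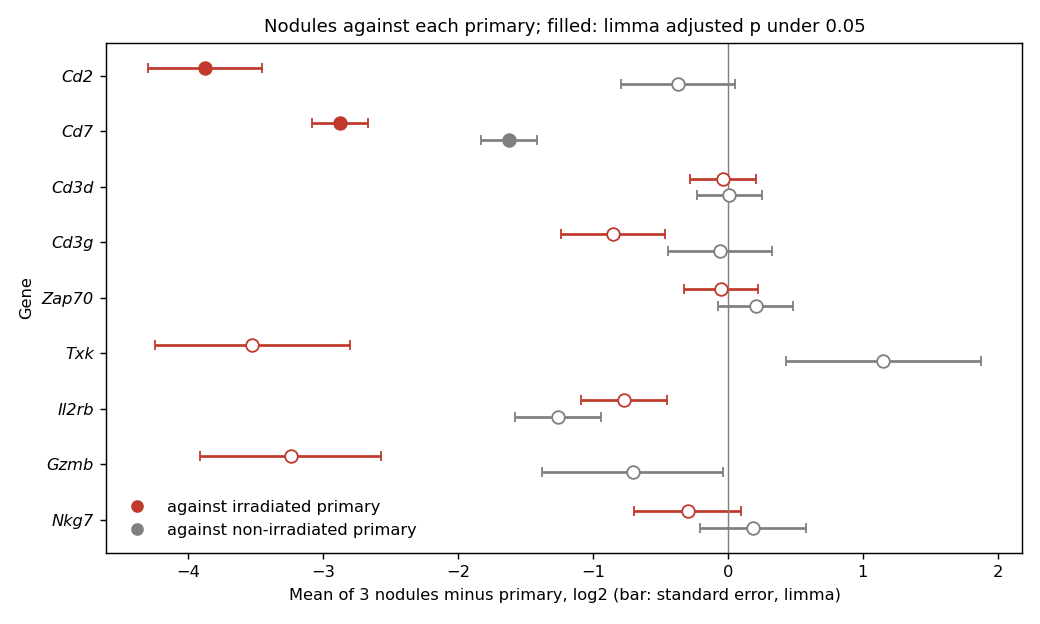
Mean of the 3 nodules minus each primary on the log2 scale with limma's standard error, for the irradiated primary in red and the non-irradiated primary in grey; filled points have an adjusted p under 0.05. Cd2 and Cd7 are called against the irradiated primary and Cd7 alone against the non-irradiated one, while Txk and Gzmb lie as far from 0 with wider errors.

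The label of these genes was then checked against the markers that define T and NK cells. Of 13 such genes measured, 10 were well above background on no array: Cd3e, Cd247, Cd4, Cd8a, Cd5, Cd28 and Lck of T cells, Ncr1 and Klrd1 of NK cells, and Prf1 of both. The other 3 (Klrk1, Gzma and Ptprc, the last shared by all leukocytes) were well above background on all 5 arrays. Among NK cell receptor genes 19 of 20 measured were seen on no array, and the summed signal of these 19 was 0.0511 to 0.0713 in the nodules, 0.0766 in the irradiated and 0.0921 in the non-irradiated primary. With the detected gene, which carried most of it, the sum was 0.347 to 0.419 in the nodules, 0.386 and 0.384. The one seen was Klrk1, which encodes the activating receptor NKG2D, at -1.78 to -1.52 by one probe, while its other probe lay between -8.93 and -8.19, below background on every array. Over the 19 undetected NK receptor genes the irradiated primary read higher than the nodule mean by a median of 0.55 (range -0.57 to 1.08), all at signals below background.

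T lineage surface genes were seen on the irradiated primary in 3 of 14 cases: Cd6 (-3.10), Ccr7 (-4.07) and Tnfrsf4 (-2.29), all of them also seen on every other array and called in neither comparison. Cd8b was seen on nodule 2 alone and Il7r, the interleukin 7 receptor, on nodule 1 alone. Cd28 read -7.10 on the irradiated primary against -8.79 to -8.24 elsewhere, and Cd4 between -7.37 and -6.31, all below background. Of the lineage transcription factors the probe named for Tbx21 (T-bet) was bright on all arrays (4.17 to 4.57). Whether that probe reads another transcript was not tested. Gata3 read -4.42, -4.11 and -3.90 on the nodules, -3.07 on the irradiated primary and -5.38, below background, on the non-irradiated primary (adjusted p = 0.137 and 0.0513). Foxn1, a transcription factor of thymic epithelium and skin that is mutated in the host, lay between -3.66 and -3.06 and was well above background on all arrays. It says nothing of the host's mutant allele, since the rat tumour carries its own copy. No array held the T cell or NK cell markers as a set, and the cell source of Cd2, Gzmb and Cd3g signal was not tested.

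**Figure D4:**
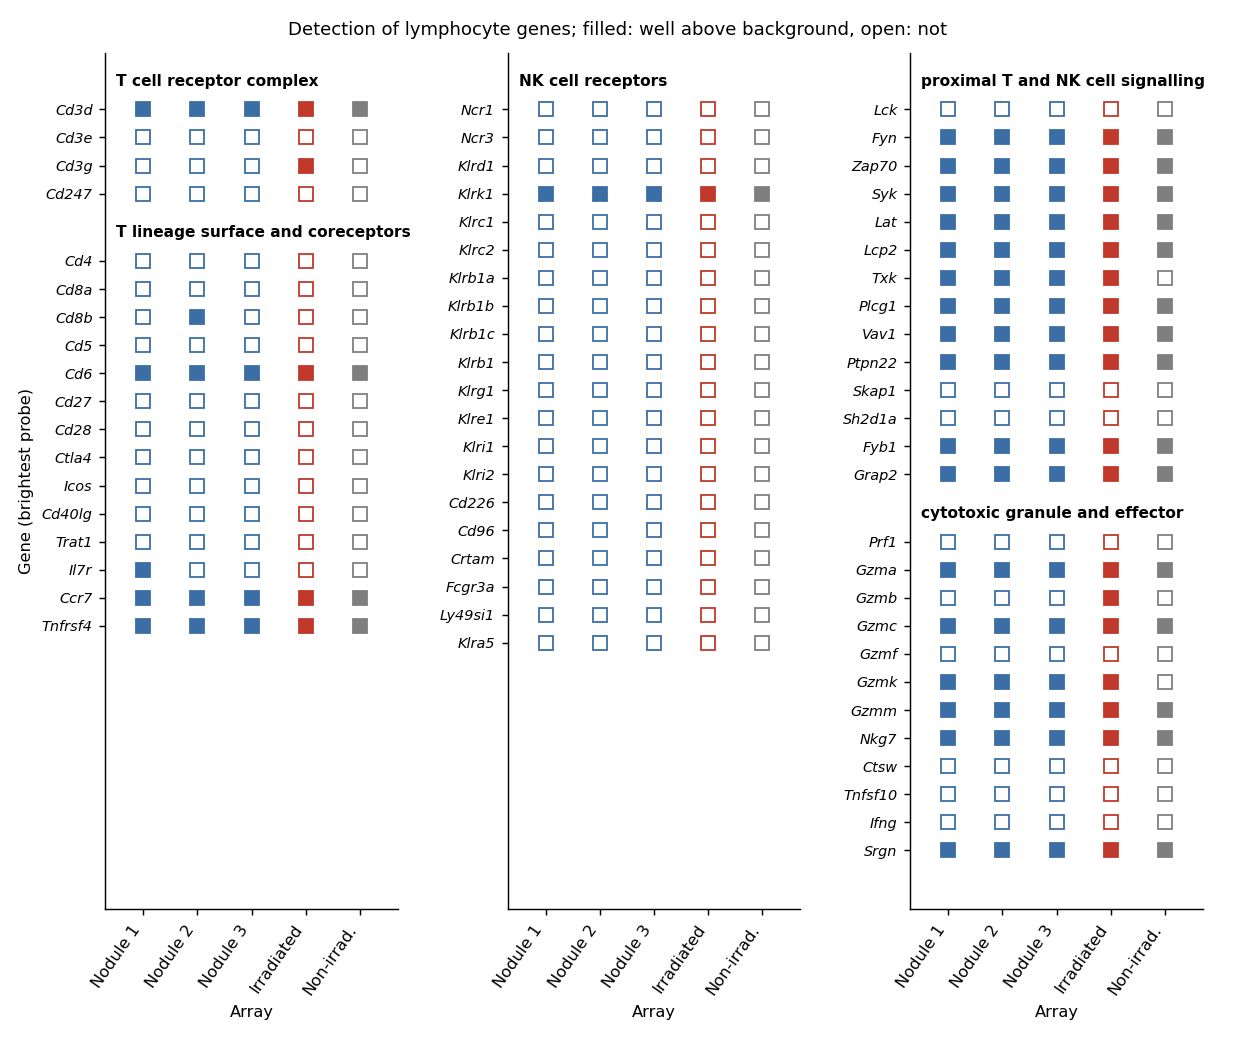
Detection of the reported genes of 5 lymphocyte lists on each array: a filled square is well above background, an open square is not. In the NK receptor list 19 of 20 genes are open throughout, and Cd3g and Gzmb are filled on the irradiated primary alone.

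Other cell types moved with the same samples. Skeletal muscle genes were the list that differed most: limma called 11 of 12 tested lower in the nodules than in the irradiated primary and 10 of 12 lower than in the non-irradiated primary, with median differences of -6.40 and -4.11. Their summed signal was 5.04 to 5.84 in the nodules, 159 in the irradiated and 36.2 in the non-irradiated primary, the same order of groups as Cd7. Myoz1, a Z-disc protein of fast muscle fibres, read -5.69, -5.77 and -5.70 on the nodules, 0.69 on the irradiated and -1.62 on the non-irradiated primary (adjusted p = 0.00394 and 0.00761). The part of muscle in the signal of the 9 genes was not tested.

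The summed pan-leukocyte signal of the irradiated primary lay inside the range of the nodules, and its macrophage signal just above it. Pan-leukocyte genes summed to 18.9 to 26.5 in the nodules, 21.7 in the irradiated and 15.9 in the non-irradiated primary. Most of each sum came from Laptm5, which read 4.52, 4.45 and 4.05 on the nodules, 4.23 on the irradiated and 3.85 on the non-irradiated primary. The sum thus says little of the other genes. Of the list, 0 of 9 tested were called by limma in either comparison (1 and 5 at an unadjusted p under 0.05). Ptprc, the common leukocyte antigen CD45, was highest on the nodules (-3.36, -3.75 and -4.26), at -4.29 on the irradiated and -5.41 on the non-irradiated primary, and its other probe was below background throughout. Macrophage genes summed to 58.7 to 74.9 in the nodules, 75.1 in the irradiated and 36.8 in the non-irradiated primary; of 18 tested 0 were called by limma against the irradiated primary (4 at an unadjusted p under 0.05), and 7 were called higher and 2 lower against the non-irradiated one. Among those higher were Aif1 (2.38, adjusted p = 0.0131) and C1qb (1.20, adjusted p = 0.0132). The 2 lower in the nodules were Cd68 (-1.12) and Cd163 (-2.54), so the macrophage markers did not move together. B cell genes gave 1 call, Cd79b, which was below background on both primaries and at least 2.48-fold higher in the nodules than in the non-irradiated one (adjusted p = 0.0445). The neutrophil list gave 0 limma calls against the irradiated primary (0 at an unadjusted p under 0.05) and 2 against the non-irradiated one. Csf3r was below background on that primary and at least 3.37-fold higher in the nodules. Ly6g6c was lower in the nodules, but whether it marks neutrophils was not tested. Mast cell genes were brightest in sum on the irradiated primary, at 0.676, against 0.124 to 0.560 in the nodules and 0.141 in the non-irradiated primary. Of the 9 measured, 5 were seen on the irradiated, 4 on each nodule and 2 on the non-irradiated primary. The median differences of the 5 tested were -1.40 for nodules minus irradiated primary and 1.84 for irradiated minus non-irradiated primary. Limma called 0 of them (1 in each comparison at an unadjusted p under 0.05). Cma1, a chymase, read -5.32, -1.39 and -1.57 on the nodules and -1.21 on the irradiated primary, where it was at least 30.1-fold higher than in the non-irradiated one. Hdc, histidine decarboxylase, was well above background on the irradiated primary alone, at least 2.79-fold over the nodules. Over the non-irradiated primary its bound of 1.33-fold was the measured fold itself. Skin genes gave 1 call in each comparison, Dmkn, higher in the nodules and below background on both primaries. The part of these cell types in the results was not tested.

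Chemokines that attract T and NK cells were higher in the irradiated primary in part. Of 11 tested, 2 were called lower in the nodules than in the irradiated primary, both ligands of the receptor CXCR3: Cxcl10 (-0.83, -0.62 and -0.43 on the nodules, 1.84 irradiated, 0.27 non-irradiated; adjusted p = 0.0130) and Cxcl11. Cxcl11 read -8.54, -8.07 and -8.60 on the nodules, -2.81 on the irradiated and -6.26 on the non-irradiated primary. It was seen on the irradiated primary alone and was at least 14.2-fold higher there than in the nodules (adjusted p = 0.0111). Cxcl11 too entered the test only through the irradiated primary. The third CXCR3 ligand, Cxcl9, was below background on all arrays. Against the non-irradiated primary Cxcl10 and Cxcl16 were lower in the nodules (adjusted p = 0.0422 and 0.0126). Limma called Cxcl11 lower there too (-2.14), although it was below background in both groups. Ccl3 and Ccl4 were below background on the non-irradiated primary, and were at least 5.92-fold and 1.96-fold higher in the nodules (adjusted p = 0.0133 and 0.0154).

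The genes most like Cd2 and Cd7 were found over the 5 arrays among 11103 other tested genes, by the root mean square difference of the mean-centred log2 profiles. Among the 3 nearest to Cd2 were Raet1l (0.159), of the family of NKG2D ligands, and Sorcs3 (0.174), a sortilin-family receptor, both well above background on the irradiated primary alone. Raet1l read -7.15, -7.22 and -7.27 on the nodules, -3.15 on the irradiated and -6.94 on the non-irradiated primary. Nearest to Cd7 were Nus1 (0.0768), Pkib (0.0876) and Pax3 (0.119), all well above background on every array. With 5 arrays these are descriptions of shape. Named genes seen on the irradiated primary alone numbered 86. The largest lower bounds over the nodules were those of Plin5 (at least 41.0-fold), Sslp1l1 (31.1-fold), Klk4 (19.4-fold), Nudt16l2 (17.2-fold) and Atf3 (16.4-fold), the last a stress-induced transcription factor. In that order Gzmb ranked 19, Cd2 35 and Cd3g 83.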

How the data were processed

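Per the file headers, Agilent Feature Extraction 11.0 made the deposited intensity of each spot by background subtraction and detrending within an array. It also set the deposited flags (well above background, outlier, saturated), which are other values, 0 or 1. The authors' deposited table of 18502 probes is in log2 units with a column median of 9.74, its normalization is not given in the sources used here, and it served as an alternative. Outlier spots (0.603 to 0.865% of gene spots) and control spots were left out, and the mean log2 signal of a probe's spots was set relative to the 75th percentile of its array. RefSeq accessions named 18354 of 30363 probes (60.4%). A feature was tested where every array of some group had it well above background, with the brightest tested probe per gene. The nodules were compared with each primary in limma 3.58.1 (R 4.3.3), fitting 3 means, moderating variances along intensity and calling an adjusted p under 0.05. A lower bound of a fold sets the bright mean against, per dim array, the higher of its lowest level well above background and the probe's own level. The number of arrays limits the precision. The fit was tested on simulated data in which every array had the same spread. That test cannot show whether each primary shares the spread of the nodules.

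The named genes are all 9 members. From each list come called genes, genes seen on the irradiated primary alone, and up to 4 others with the largest difference between irradiated primary and nodules. Of the macrophage and skeletal muscle lists only some called genes are named. Defining T and NK cell genes are named too, as are the 3 genes most like Cd2 and Cd7 and the 5 largest lower bounds. Cd8b, Il7r, Il2ra, Il2rg, Jak3, Il2, Ifng, Cxcl9, Tbx21, Cd6 and Laptm5 were named outside this rule after their values were seen. An item that the rule covers is not reported here and was left out of the list counts. Members and lists were chosen with earlier results of these data known. Alternatives were normexp on median spot signals with offset 50 (the planned mean signal was not used), median and quantile scaling, other filters and flags, each probe as a feature, no intensity trend, the deposited matrix and each nodule left out. Promoter sequences are RefSeq's (GRCr8), whereas the arrays were designed on another rat build, so no probe coordinates are given.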

Additional observations from a re-analysis of the deposited data

How the results depend on the processing

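With 5 arrays and 2 residual degrees of freedom, single nodules decided most calls. Features called against the irradiated primary numbered 704, and 438 with array median scaling, 399 without the intensity trend, and 0 to 3232 with a nodule left out. Without nodule 2 limma called 0 features in either comparison (2705 and 5008 at unadjusted p under 0.05), without nodule 3 191 and 296. Against the non-irradiated primary 3512 were called, and 0 to 6472 with a nodule left out. Members called against the irradiated primary numbered 2, and 1 with the filter on all 5 arrays or in the deposited matrix, neither of which holds Cd2, Gzmb, Cd3g or Txk, and 0 to 4 with a nodule left out. Against the non-irradiated primary 1 was called, 2 (Cd7 and Il2rb) with quantile normalization, the filter on all 5 arrays or the deposited matrix, and 0 to 2 with a nodule left out. With normexp, the members called against the irradiated primary were Cd7, Gzmb and Txk, and Cd2 was not called. Features at least 2-fold apart between the primaries fell from 3030 to 1491 with normexp. Members seen on the irradiated primary alone numbered 3, and 1 (Cd2) with the flag for a positive and significant signal. They numbered 2 (Cd2 and Gzmb) with signals of at least 2 times the lowest detected one, and 2 (Cd2 and Cd3g) with a share of at least 0.5 of the spots, an alternative chosen after seeing the data. Reversed signs concerned uncalled differences near 0. Against the irradiated primary, Cd3d gave 0.054 (median scaling), 0.042 (quantile), 0.021 (deposited matrix) and -0.13 to 0.072 with a nodule left out, and Zap70 0.039 (normexp), 0.041 (median scaling), 0.061 (quantile), 0.0047 (deposited matrix) and -0.11 to 0.028. Against the non-irradiated primary, quantile normalization gave 0.033 for Cd2 and normexp gave -0.032 for Cd3d and -0.032 for Zap70. With a nodule left out Cd3d ranged from -0.082 to 0.12, Cd3g from -0.18 to 0.10 and Nkg7 from -0.0071 to 0.45. The cause was not tested. No paired analysis was possible because only the nodules carry replicate numbers.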
